A study of Daphnia magna with 20 samples.

Results

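Exposures to lithium cobalt oxide (LCO) at 10 mg/L and at 1 mg/L were compared in whole water fleas, Daphnia magna, by RNA sequencing. The comparison used 10 of the 20 libraries of the series, 5 at each dose, chosen by their titles. All animals were labelled wild type, were 5 days old when exposed and were exposed for 48 h in moderately hard water with alfalfa as food, and 10 animals were pooled for a library. The other 10 libraries served as reference levels: 5 from unexposed animals (control) and 5 from animals in dissolved lithium (66 µg/L, as LiCl) and cobalt (15 µg/L, as CoCl2), the amounts that LCO at 10 mg/L releases in the same time. Replicates were numbered 1, 2, 4, 5 and 6 at 10 mg/L and 1, 2, 3, 5 and 6 at 1 mg/L. Replicate 1 at 10 mg/L carries a treatment tag that reads untreated, but its title places it at 10 mg/L, and its distance to the other 10 mg/L libraries (0.495, root mean square difference in log2 CPM over the tested targets) was smaller than to control (0.916). Whether pools had separate vessels is not stated, so p-values measure the spread between these pools.

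LCO is the cathode material of many lithium-ion batteries. Daphnia are filter feeders that take suspended particles into the gut, so animals in an LCO suspension meet the particle itself and also the lithium and cobalt that dissolve from it. Cobalt is an essential trace metal, as the centre of vitamin B12, and is toxic in excess, when it can displace other metals from proteins. The series covers a control, both doses and the ions, and setting the doses against each other asks what the higher dose adds.

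The deposited tables list transcripts by target identifier without gene names, so gene function, gene lists and genome positions are not given, and the tissue label could not be checked against marker genes. Because whole animals were pooled, fewer cells of a type and less RNA per cell cannot be told apart. The total estimated count ran from 27241458 to 44181066 at 10 mg/L and from 25111305 to 37878255 at 1 mg/L, and the means did not differ by more than the spread between libraries (exact two-sided permutation test, p = 0.302, n = 5 each). Of 26646 targets, 16163 passed the filter on low counts. The median SE of the log2 fold change between the doses was 0.192, and the median 95% interval reached 1.32-fold to either side. Replicate 5 at 1 mg/L stood apart: its distance was 0.977 to the other 1 mg/L libraries and 0.845 to the 10 mg/L mean, while the other LCO libraries lay nearest to their own dose. Results are therefore also given without it.

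The doses differed in 1015 targets, 6.28% of those tested, by edgeR's quasi-likelihood test at an adjusted p under 0.05. Of these, 255 were higher at 10 mg/L (1.58% of those tested) and 760 were lower (4.7%). The median log2 fold change of the higher targets was 0.67, with quartiles of 0.42 and 1.18. The lower targets had a median of -0.86 and quartiles of -2.13 and -0.42, so their changes reached further. By over 2-fold, 80 targets were higher (0.495%) and 346 lower (2.14%). By over 8-fold, 4 were higher and 126 lower (0.78%). Without replicate 5 at 1 mg/L the counts were 371 higher and 965 lower, of which 32 and 139 by over 8-fold. With only the LCO libraries in the fit, which then does not pool their spread with that of control and ions, 510 were higher and 1242 lower.

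**Figure D1:**
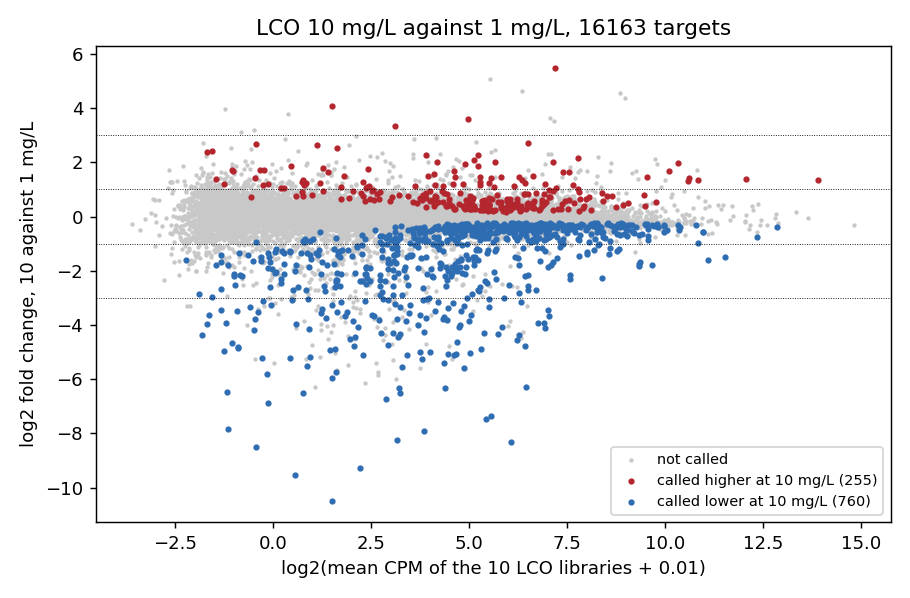
Each point is a tested target, with the log2 of its mean CPM (the count scaled to library size, plus 0.01) over the 10 LCO libraries on the x axis and the log2 fold change of 10 against 1 mg/L on the y axis. Red points are the 255 targets called higher, blue points the 760 called lower, and dotted lines mark 2-fold and 8-fold; the blue points reach much further from 0 than the red.

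Single libraries moved the count of called targets. With replicates left out 1 at a time it was 519 without replicate 6 and 580 without replicate 2 at 10 mg/L, 522 without replicate 2 at 1 mg/L, and 1336 without replicate 5 at 1 mg/L. The 80 targets higher by over 2-fold became 49 without replicate 6 at 10 mg/L, 38 without replicate 2 at 1 mg/L and 179 without replicate 5 at 1 mg/L. Lower targets outnumbered higher ones with each of the 10 libraries left out. The smallest higher list had 90 targets, without replicate 2 at 1 mg/L. The lower list fell to 404 without replicate 6 and 431 without replicate 2 at 10 mg/L, and to 432 without replicate 2 at 1 mg/L. The higher list also fell by more than 1.5 times without replicate 1 (165), 2 (149) or 6 (115) at 10 mg/L and without replicate 1 (165), 3 (145) or 6 (163) at 1 mg/L. Of the 15148 targets that were not called, 11121 (73.4%) had a 95% interval that lay within 2-fold of no change. A further 685 uncalled targets had an estimate beyond 2-fold.

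**Figure D2:**
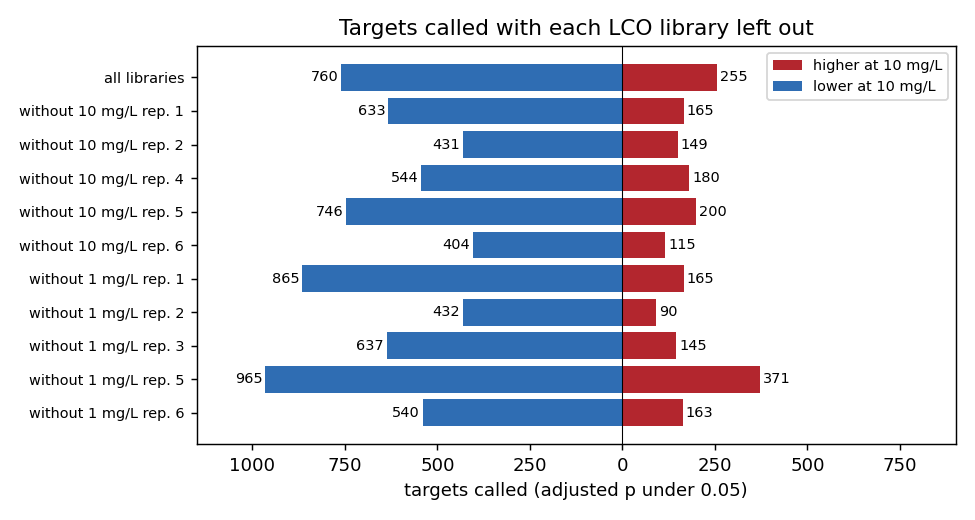
Bars give the number of targets called between the doses with all libraries and with each of the 10 LCO libraries left out, higher at 10 mg/L in red to the right and lower in blue to the left. Lower targets outnumber higher ones in every bar, and the totals run from 519 to 1336.

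Among the higher targets, KZS17748 and KZR97950 had the smallest p. The targets named here were chosen by p in this comparison, so a gap between the doses was nearly set. The dose groups did not overlap in 9.01% of all tested targets. KZS17748, a target of 371 bases, stood at 103, 84, 74.5, 68.9 and 84.8 CPM in the 10 mg/L libraries (CPM after scaling by the trimmed mean of M-values, TMM). In the 1 mg/L libraries it stood at 27.6, 24.8, 24.6, 39.9 and 33.6 CPM. Every 10 mg/L library was above every 1 mg/L library, and the highest of the 1 mg/L group was replicate 5. The means were 83 CPM ± 13 and 30.1 ± 6.58 (SD, n = 5 each), a 2.76-fold difference (log2 fold change 1.46, 95% interval 1.11 to 1.82, edgeR adjusted p 0.000589). Its 5 control libraries lay at 21.2, 22.7, 27.9, 33 and 21.7 CPM, and the 5 ion libraries at 95.2, 155, 124, 150 and 154 CPM. The control libraries thus lay at the level of the lower dose. In the ion group only the lowest library, replicate 1, reached into the range of the 10 mg/L libraries. The test called 10 mg/L lower than the ions (log2 fold change -0.71, edgeR adjusted p 0.00936).

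KZR97950, of 252 bases, had another order of groups. It stood at 88, 132, 127, 95 and 123 CPM at 10 mg/L. At 1 mg/L it stood at 33.8, 28.6, 42.6, 55.1 and 45.5 CPM. The dose groups did not overlap, and the log2 fold change was 1.46 (95% interval 1.09 to 1.83, edgeR adjusted p 0.000757). Control libraries lay at 31.1, 38.7, 49.4, 50.7 and 34.2 CPM and ion libraries at 42.5, 40.2, 48.7, 34.1 and 40.8 CPM. For this target 10 mg/L LCO stood above all other groups, and no difference between ions and control was detected (log2 fold change 0.01, edgeR adjusted p 0.951).

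KZS15642 (1048 bases) and KZS05887 (3092 bases) had the smallest p among the lower targets. KZS15642 stood at 38.4, 18, 26.7, 28.9 and 20.4 CPM at 10 mg/L and at 110, 189, 217, 91.7 and 167 CPM at 1 mg/L, a log2 fold change of -2.55 (95% interval -3.17 to -1.93, edgeR adjusted p 0.000589). Controls held 97.4, 185, 109, 150 and 127 CPM, and ion libraries 55.4, 38.6, 28.8, 78.4 and 42.4 CPM. The 10 mg/L values were all below those of the 1 mg/L and control libraries and overlapped with the ion values, although the test called 10 mg/L lower than the ions (log2 fold change -0.88, edgeR adjusted p 0.0315).

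KZS05887 stood at 12.1, 10.1, 9.7, 13.7 and 11.6 CPM at 10 mg/L and at 26.1, 55.2, 44.7, 24.4 and 40.5 CPM at 1 mg/L. The log2 fold change was -1.74 (95% interval -2.21 to -1.26, edgeR adjusted p 0.000792). Control libraries held 30.1, 51.9, 45.3, 41.2 and 56.6 CPM, and ion libraries 12.2, 11, 9.26, 17.8 and 11.6 CPM. For both lower targets the 1 mg/L replicates 1 and 5 were the lowest of their group, still above every 10 mg/L library.

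**Figure D3:**
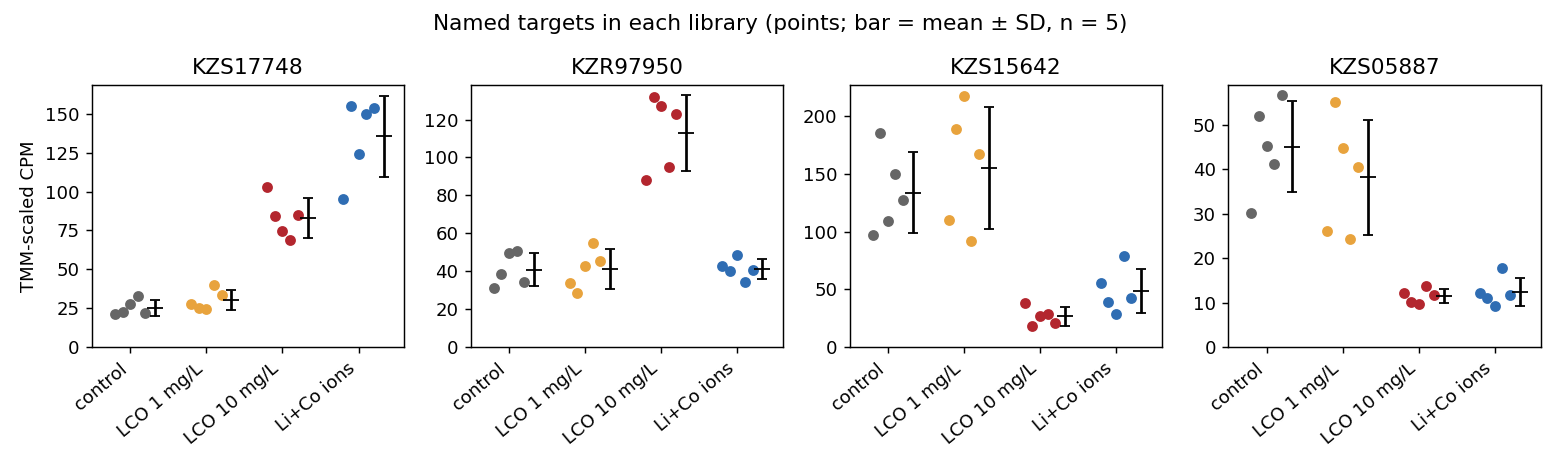
TMM-scaled CPM of the 4 named targets (y axis, linear from 0) in each of the 20 libraries, by group, with points for libraries and bars for mean ± SD (n = 5). At 10 mg/L the libraries lie apart from those at 1 mg/L in all 4 panels, which the choice by smallest p nearly sets. For KZR97950 the ion libraries (34.1 to 48.7 CPM) lie at the control level.

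The dissolved ions gave a readout from libraries that the comparison of the doses did not use. Of the 255 targets higher at 10 than at 1 mg/L, 221 (86.7%) were called higher with ions than in control, where 25.4% of all tested targets were, and 6 were called lower. Of the 760 lower targets, 622 (81.8%) were called lower with ions, where 24.7% of all tested targets were, and 6 were called higher. The median log2 fold changes of ions over control were 0.91 for the higher and -0.96 for the lower targets, against 0.03 over all tested targets. Among the 126 targets lower by over 8-fold, 122 were called lower with ions, 4 were not called, and in none was the ion mean above the control mean. The lists hold more abundant targets than the tested targets as a whole, with medians of 39.7 and 37.4 CPM against 14.8. In the most abundant of 4 equal parts of the tested targets, 34.7% were called higher and 33.4% lower with ions. Both comparisons also share an estimate of the spread. With the LCO libraries fitted alone and the ion and control libraries fitted alone, which removes that link, the shares were 67.1% of the higher list (19.8% of all tested targets) and 72.2% of the lower list (22.2%). Without replicate 5 at 1 mg/L they were 77.6% and 78.7%. With control replicate 1 and ion replicate 5 left out as well, which also stood closer to a different group's mean, they were 74.8% and 76.8%, with 25.5% and 25.7% of all tested targets.

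**Figure D4:**
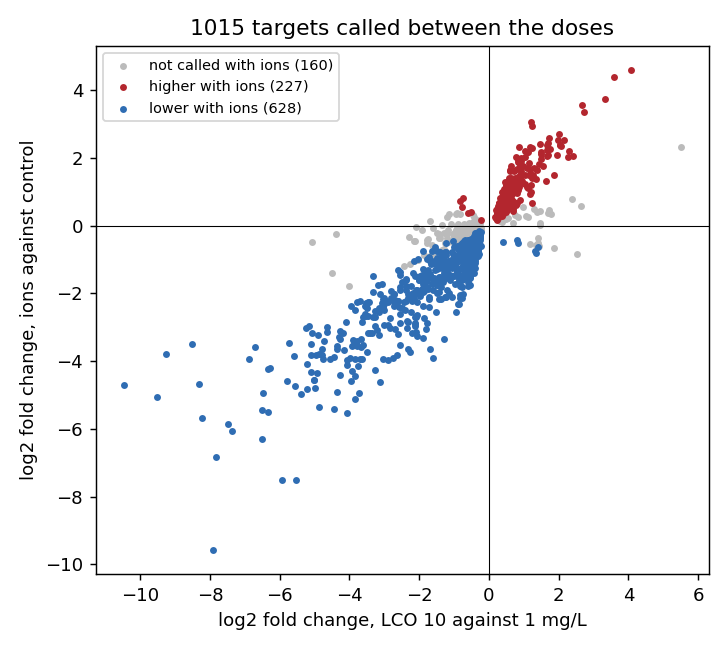
The 1015 targets called between the doses, with the log2 fold change of 10 against 1 mg/L LCO on the x axis and that of ions against control, from other libraries, on the y axis. Colours give the call with ions (227 higher, 628 lower, 160 not called), and nearly all coloured points lie in the quadrants where both differences have the same sign.

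For a smaller set of targets no matching ion difference was called. In the higher list, 28 targets (11%) were not called with ions, where 49.9% of all tested targets were not. Their median log2 fold change was 1.39 between the doses and 0.25 for ions over control, and the latter ranged from -0.83 to 2.32, so a missing call does not show a missing difference. LCO at 10 mg/L was called higher than the ions in 18 of these 28 and lower in 0, a split that the choice of targets favours. In the 221 that were also higher with ions, it was called higher than the ions in 5 and lower in 89. Over all 16163 tested targets it was called higher than the ions in 1833 (11.3%) and lower in 2224. Another 6 targets were higher at 10 mg/L but lower with ions. Their median group levels were 410 CPM in control, 469 in the 1 mg/L group, 1150 in the 10 mg/L group and 250 with ions. In all 6 LCO at 10 mg/L was called higher than the ions, which the choice of targets by both calls nearly sets. Comparisons that share the 10 mg/L libraries or the ion libraries are set side by side here and do not support each other. In the lower list, 132 targets (17.4%) were not called with ions (median log2 fold change between the doses -0.72, ions over control -0.15). LCO at 10 mg/L was called lower than the ions in 41 of these 132 and higher in 1. In the 622 that were also lower with ions, it was called lower than the ions in 65 and higher in 72.

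In the medians of the higher list, the 1 mg/L libraries lay close to the unexposed animals. Over the 255 higher targets the median log2 CPM relative to the control mean was 0.02, -0.11, 0.00, 0.20 and 0.08 in the 1 mg/L libraries. The 10 mg/L libraries stood at 0.79, 0.68, 0.63, 0.66 and 0.84. The 10 mg/L values were all above the 1 mg/L values, a gap that the choice of the targets sets, and among the 1 mg/L libraries replicate 5 was the highest. Control libraries ran from -0.13 to 0.12 and ion libraries from 0.76 to 1.01. The control mean was nearer to the 1 mg/L than to the 10 mg/L mean in 242 of the 255 targets (94.9%), against 65.3% of all tested targets, which the comparison of the doses did not fix. Targets called higher at 1 mg/L than in control made up 6.27% of the list (16 targets), near the 5.64% of all tested targets. The choice of targets lower at 1 than at 10 mg/L limits this count. It reuses the 1 mg/L libraries, so it does not show how close the lower dose lay to control.

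In the 760 lower targets the 1 mg/L libraries spread more. Their medians relative to the control mean were -0.48, 0.16, -0.03, -0.38 and -0.17 (log2), and those at 10 mg/L were -1.04, -1.12, -0.96, -1.02 and -1.10. Control libraries ran from -0.17 to 0.16, so replicates 1 and 5 at 1 mg/L lay below every control library and above every 10 mg/L library. Ion libraries ran from -1.08 to -0.63. The control mean lay above both doses in 524 of the 760 targets, between them in 209 and below both in 27 (68.9%, 27.5% and 3.55%). Over all tested targets these shares were 41.5%, 20.9% and 37.5%. At 1 mg/L, 75 of the 760 were called lower than control (9.87%, against 3.69% of all tested targets), with a median against control of -0.57 on the log2 scale. All 75 were also called lower at 10 mg/L than in control (background 16.7%, median -1.06), which nearly follows from the choice of targets below control at the lower dose and lower still at the higher. A further 43 were called higher than control at 1 mg/L, a share of 5.66% that is near the 5.64% of all tested targets. Of these 43, 2 were called higher than control at 10 mg/L (background 13.7%), a count that the choice of targets lower at 10 than at 1 mg/L limits. These comparisons share libraries, so a chance deviation at 1 mg/L enters both.

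The 126 targets that were lower by over 8-fold showed the widest spread at the lower dose. Their median level was 0.712, 0.551, 0.734, 0.597 and 0.616 CPM in the 10 mg/L libraries. In the 1 mg/L libraries it was 1.58, 34.4, 20.5, 3.18 and 7.93 CPM. Low levels at 10 mg/L are set by the choice of these targets, and 16 of them had at most 3 counts in each 10 mg/L library. The medians of the 1 mg/L pools differed widely among themselves. Control libraries stood at 8.37, 40.2, 7.3, 24.5 and 48.1 CPM and ion libraries at 1.31, 1.03, 1.06, 5.78 and 1.3 CPM. Replicates 1 and 5 at 1 mg/L were therefore below every control library, and the other 1 mg/L libraries lay within the control range. The median SD of log2 CPM over these targets was 1.74 at 1 mg/L and 0.529 at 10 mg/L. All tested targets had 0.231 and 0.224. The choice of targets and the low counts at 10 mg/L affect these SDs, so the contrast in spread is partly set by them.

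Replicate 2 at 1 mg/L held the highest 1 mg/L value in 110 of the 126 targets, and in 45 of them more than the other 4 libraries of its group together. Without it, 69 targets were called lower by over 8-fold. Replicate 5 held the highest value in 9 of the 126, and without it the count was 139. With the replicate number as a block it was 48, and in limma on log2(TPM + 1), which changed the measure and the test together, it was 37. Dose groups did not overlap in 81 of the 126 (64.3%), against 9.01% of all tested targets, a measure from the same comparison that chose them. No count was recorded in any 10 mg/L library for 4 of the 126. Set against a floor of 3 counts over the group, these 4 were at least 53.3-fold to at least 342-fold lower, and with these bounds the median log2 fold change of the 126 was -4.10.

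**Figure D5:**
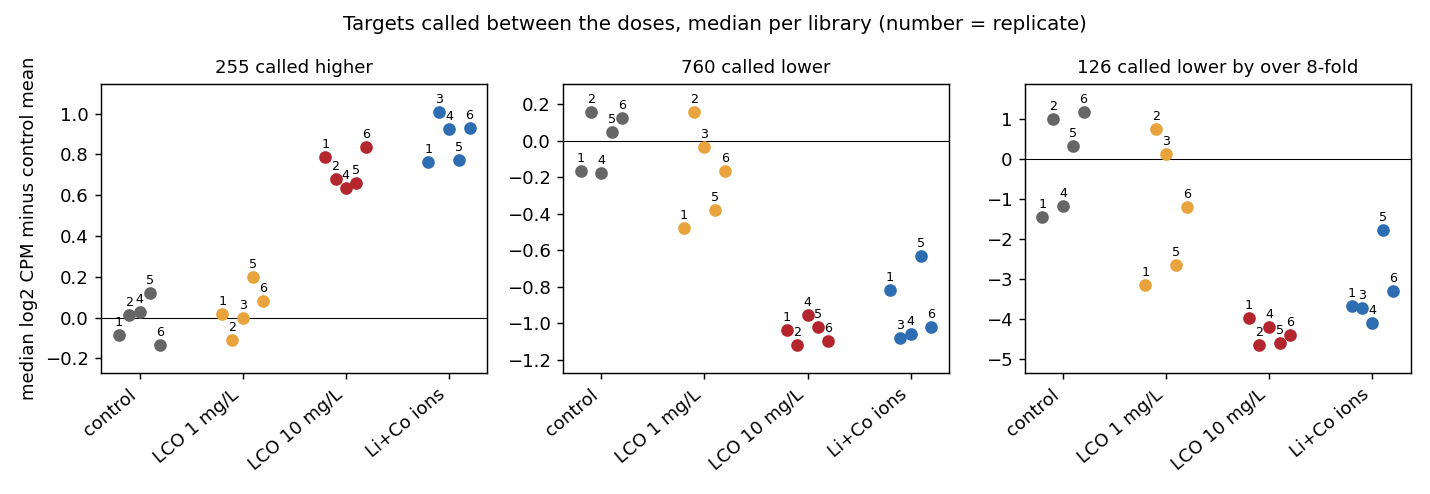
Median log2 CPM relative to the control mean (y axis) of the targets called higher, called lower and called lower by over 8-fold between the doses, for each of the 20 libraries by group, with the replicate number at each point. The 1 mg/L libraries sit near control in the left panel and spread from 0.75 to -3.16 in the right panel, where the 10 mg/L libraries lie together between -4.65 and -3.98.

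The share of the transcript pool held by the called targets is given as a description, since its difference between the doses follows from how they were chosen. TPM, which accounts for target length, was used to compare levels between targets. For short targets TPM depends strongly on that length. At 10 mg/L, KZR97950 (252 bases) had means of 113 CPM and 1310 TPM, and KZS17748 (371 bases) of 83 CPM and 473 TPM. Ranks and shares of short targets carry this limit. The 255 higher targets held 12.4% to 16.8% of TPM in the 10 mg/L libraries and 4.25% to 8.12% at 1 mg/L, with the highest 1 mg/L share in replicate 5. They held 3.55% to 5.81% in control and 5.97% to 9.12% with ions. Much of this lay in 3 targets, singled out for their abundance after their values were seen, which held 8.22% to 11.4% at the higher dose, 2.56% to 5.5% at the lower, 2.11% to 3.41% in control and 2.83% to 4.84% with ions. The other 252 targets of the list held 4.19% to 5.39% at 10 mg/L, 1.7% to 2.62% at 1 mg/L, 1.44% to 2.39% in control and 3.11% to 4.74% with ions. The 760 lower targets held 7.61% to 8.57% at 10 mg/L, 11% to 15.8% at 1 mg/L, 14.1% to 18% in control and 8.07% to 9.84% with ions.

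The most abundant of the higher targets, of 204 bases and rank 2 by mean TPM over all 20 libraries, those at 10 mg/L included, stood at 37000, 47300, 59300, 38100 and 59100 TPM at 10 mg/L. At 1 mg/L it stood at 17100, 13700, 20200, 24900 and 19700 TPM. The dose groups did not overlap (log2 fold change from the counts 1.35, SE 0.26, edgeR adjusted p 0.0055). Control held 16300 TPM ± 3150 and ions 10500 ± 4560 (SD, n = 5 each), and the difference between these did not pass the test (edgeR adjusted p 0.0682). The target of rank 7 (459 bases) had the same order of groups, at 25400 TPM ± 5480 at 10 mg/L and 10100 ± 1980 at 1 mg/L (edgeR adjusted p 0.00365). It held 7360 TPM ± 1830 in control and 4880 ± 1730 with ions, which were called lower than control (edgeR adjusted p 0.0399).

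The target of rank 4 (217 bases) followed the ions instead. It stood at 26500, 27300, 24800, 27500 and 26900 TPM at 10 mg/L and at 6920, 4750, 3190, 17400 and 9180 TPM at 1 mg/L. Replicate 5 held the highest 1 mg/L value, and the 10 mg/L libraries lay close together. Control held 5550 TPM ± 3940 and ions 23700 ± 5520 (SD, n = 5 each; ions against control, edgeR adjusted p 0.00161). Its log2 fold change between the doses was 1.68 (SE 0.48, edgeR adjusted p 0.0402), and 14 of the 20 libraries gave it a fractional count, so reads shared with similar targets make its level uncertain.

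Target length was not used in the comparison, and no test was run on it. The higher list had a median target length of 2457 bases and the lower list of 1709.5, against 1866 for all tested targets. With the tested targets divided into 4 equal parts by length, from shortest to longest, 1.01%, 1.24%, 1.81% and 2.25% were called higher, and 4.65%, 5.64%, 4.48% and 4.03% lower. Divided in the same way by mean CPM, from lowest to highest, 0.693%, 0.841%, 1.81% and 2.97% were called higher and 2.1%, 3.66%, 4.7% and 8.34% lower.

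Each LCO library was also placed on lists called without it. On the lower lists the 10 mg/L libraries lay nearer to the mean of the other 10 mg/L libraries than to that of 1 mg/L in 76.6% (replicate 5) to 99.1% (replicate 2) of targets, and on the higher lists in 77% (replicate 1) to 99.1% (replicate 6). The 1 mg/L replicates 2, 3 and 6 lay nearer to the 10 mg/L mean in 1.39%, 10.7% and 5.02% of the lower targets and in 2.25%, 12.5% and 18% of the higher targets. Replicate 1 at 1 mg/L did so in 40.1% of the lower and 17.7% of the higher targets. Replicate 5 at 1 mg/L did so in 44.4% of the lower and 64.9% of the higher targets. The pools at 10 mg/L thus fell on their own side in most targets, while replicate 5 at 1 mg/L lay nearer to the higher dose in most of the targets that rise with dose.

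The 32 targets that were higher at 10 mg/L by over 8-fold when replicate 5 at 1 mg/L was left out were unevenly expressed elsewhere too. In the 31 of them that were also tested with all libraries, the median level was 92.3 CPM in that replicate and 4.67 to 6.06 CPM in the other 1 mg/L libraries. The 10 mg/L libraries ranged from 22.1 to 338 CPM, the ion libraries from 8.51 to 383 CPM and the control libraries from 4.3 to 38 CPM. With all libraries 4 of the 32 were called higher (1.58% of all tested targets were), from a list chosen for being higher at 10 mg/L.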

How the data were processed

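Estimated counts and TPM were deposited, per the file headers, in 1 table per library with the same 26646 targets. The estimated counts were not normalized by the authors, and TPM, per the file headers, account for effective length and sum to a fixed library total. Target length in bases was deposited beside them. Counting program, annotation and build: not given in the sources used here. No target identifier matched the gene table at hand (0 matches), so 14 lists of genes by product name were not run. A fractional count, from reads divided between similar targets, occurred in 24.2% of the tested targets.

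Estimated counts were rounded to whole numbers. Targets were kept by filterByExpr (minimum count 10, minimum total 15). All 20 libraries entered 1 edgeR 4.0.16 quasi-likelihood fit (R 4.3.3) with TMM scaling and group as the only term, and contrasts were tested two-sided with Benjamini-Hochberg adjustment over the 16163 tested targets at 0.05. SEs were derived from the log2 fold change and its F statistic. Log2 CPM used a prior count of 2. Members and comparisons were chosen with earlier results of these data known. The 2 higher and 2 lower targets with the smallest p were named. No pair of replicates held the same counts (lowest chi-square per degree of freedom 21.5). Counts were simulated for this contrast over 15987 targets. Each target was drawn independently, with its spread the same in all groups. Libraries that stand apart in many targets at once were not simulated, so the false calls do not measure those of the real list. The fit recovered 14% of 1.5-fold, 64% of 2-fold, 90% of 4-fold and 100% of 8-fold changes (50 targets each), with 3 false calls among 137. Changes were placed only in targets with an expected count over 20 in the smallest library, so recovery among scarcer targets was not measured. Alternatives used DESeq2 1.42.0 and limma 3.58.1, other filters, fits and depths, and left-out libraries. Figures were drawn with matplotlib 3.10.9.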

Additional observations from a re-analysis of the deposited data

Results flagged for a closer look

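The effect of LCO at 10 mg/L differed from that at 1 mg/L in 1015 targets in a test of the difference itself, the contrast of the doses. Outlying libraries were looked for in 30 groups of 5 values: the named targets, the medians of the called lists and the library totals of the LCO groups. No library passed the critical ratio of 0.71 of gap to range, where chance passes about 1 in 20. The named targets and the lists were called from these libraries, which disfavours an outlying library there. The ratio was not computed on the distances between libraries. There replicate 5 at 1 mg/L stood at 0.977 from its own group and the others of that group at 0.477 to 0.561.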

How the results depend on the processing

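The 4 named targets kept their direction and passed the threshold in all 19 alternatives. Their log2 fold changes were 1.33 to 1.56 for the higher and -2.74 to -1.57 for the lower targets. They were chosen for the smallest p in the main fit, and the alternatives reuse its libraries, so this was nearly set in advance. The counts of called targets moved with the processing. Lower targets outnumbered higher ones in every alternative run, with the higher share running from 15.9% (limma) to 37.7% (mean CPM of at least 5), against 25.1%. The share of the higher list also called higher with ions ran from 67.1% to 88.3%, and that of the lower list called lower with ions from 72.2% to 87.6%. The share of all tested targets moved too. It ran from 15.1% (no filter on low counts) to 30.6% (mean CPM of at least 5) for higher with ions. For lower with ions it ran from 17.6% to 32.5% in the same settings.

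The DESeq2 Wald test called 1683 targets, 492 higher (146 by over 2-fold) and 1191 lower, of which 412 and 940 moved the same way with ions. With only the groups compared, 1752 were called, 510 higher (139 by over 2-fold) and 1242 lower, with 342 of the higher also higher with ions. Without control replicate 1, LCO 1 mg/L replicate 5 and ion replicate 5, 1947 were called, 660 higher (317 by over 2-fold) and 1287 lower, with 494 and 989 moving the same way with ions. With the replicate number as a block, 593 were called, 421 of them lower (197 by over 2-fold, 48 by over 8-fold), with 133 and 354 the same way with ions. The numbers are not shown to pair the samples: the deviations of the 4 same-numbered LCO pairs correlated across targets at -0.099 to 0.244, and those of the 21 other pairs at -0.243 to 0.22. limma on log2(TPM + 1) called 219 lower by over 2-fold and 37 by over 8-fold, with 128 higher targets also higher with ions. That number was 138 with no filter on low counts. Requiring a mean CPM of 5 or more gave 346, and 392 higher targets in all. Of all tested targets, 26.4% were called higher and 25.8% lower with ions in the DESeq2 Wald test. These shares were 19.8% and 22.2% with only the groups compared, and 25.5% and 25.7% without the 3 libraries. They were 21.6% and 21.8% with the block, and 27.4% and 20.8% with limma. The causes of the shifts in the counts were not tested.

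Leaving out each LCO library in turn gave 519 to 1336 targets, 90 to 371 higher and 404 to 965 lower. It gave 38 to 179 higher and 231 to 411 lower by over 2-fold, and 69 to 149 lower by over 8-fold. Targets moving the same way with ions numbered 66 to 288 (higher) and 354 to 759 (lower). In these fits 23.1% to 24.7% of all tested targets were called higher with ions and 24% to 26.2% lower. In the simulation, at the depth of these libraries, 14% of 1.5-fold changes were recovered. It drew targets independently, so it did not hold shifts shared by many targets of a library. The recovered share holds for well-counted targets, since scarcer targets were given no change.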

Other observations

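Identifiers of called targets were compared by their numbers, with no test. Of the 724 lower targets with a tested target next to them in number, 160 (22.1%) had a neighbour that was also called lower. Of the 13677 other targets with a tested target next to them in number, 7.62% had a neighbour called lower. For a neighbour called higher, the counts were 19 of 234 higher targets (8.12%), against 2.58% of the 14167 other targets with a tested target next to them. Whether consecutive identifiers lie next to each other in the genome was not examined. A fractional count in some library was recorded for 15.4% of the lower and 23.1% of the higher targets, against 24.2% of all tested targets.

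In 228 targets, replicate 5 at 1 mg/L exceeded each of the other 1 mg/L libraries by 8-fold or more (on the log2 CPM scale). The same count within the own group was 200 for control replicate 1 and at most 13 for each of the other libraries. The comparison of the doses called 3 of the 228 lower and none higher, where 4.7% and 1.58% of all tested targets were. The choice of the 228 used the values that this comparison tests. A single high 1 mg/L value widens the spread and works against a call of higher, so these counts largely follow from the choice.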
